A study of Capsicum annuum and Solanum lycopersicum with 125 samples.

Results

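Pepper tissue from the scion of pepper:tomato heterografts was compared with pepper tissue from the stock of tomato:pepper heterografts at 21 days after grafting (DAG). Graft types are named scion first, so pepper grew above tomato in pepper:tomato and below tomato in tomato:pepper. The members were chosen by their labels and comprised 5 heterografted scion and 5 heterografted stock libraries, 10 of the 125 libraries of the series and 10 of its 24 pepper libraries at 21 DAG. The pepper was *Capsicum annuum* California Wonder, a bell pepper, and the tomato was *Solanum lycopersicum* M82. Pepper seedlings aged 21 days and tomato seedlings aged 14 days were grafted, kept in darkness for 3 days, and a 0.5 cm piece of stem was harvested on each side of the junction. Because pepper was above the junction in one graft type and below it in the other, the scion and stock pieces came from different plants with different tomato partners. Self-grafted pepper scions (n = 5), self-grafted pepper stocks (n = 5) and ungrafted pepper stems (n = 4) of the same day were used for reference, together with heterografted scions and stocks of 14 DAG (n = 4 each) and of 7 DAG (n = 4 scions and n = 3 stocks). The labels call the libraries of a group biological replicates.

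A graft junction heals when callus bridges the wound and vascular tissue reconnects the scion and the stock. Sugars and auxin move down the stem and water and mineral nutrients move up, so the tissue above and below an unconnected junction has unlike supplies. Grafts between pepper and tomato fail to join their xylem, whereas self-grafted pepper reconnects. Comparing pepper above tomato with pepper below tomato sets both positions side by side in incompatible grafts. Position cannot be told apart here from graft type and tomato partner. The self-graft gives a scion and stock contrast in a graft that heals, where both pieces can come from one plant, unlike in the heterografts.

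Each library was a 3' sequencing library, in which a transcript is counted near its polyadenylated end. Total counts ran between 294761 and 547061 in the heterografted scions (median 364627) and between 382654 and 493202 in the heterografted stocks (median 417972), a difference in the means that did not exceed the spread (p = 0.722, two-sided exact permutation test, n = 5 each, for which the smallest possible p is 0.00794). The 10 most abundant genes held 16.9% to 38.7% of the counts in the scions (median 19.4%), against 21.8% to 58.3% in the stocks (median 33.9%), and the test did not separate the groups (exact permutation p = 0.135, Benjamini-Hochberg adjusted p = 0.405 over 3 measures). Alignment rates, by which the study judged RNA degradation in incompatible stocks, were not analysed here, and the part of RNA quality in the contrast was not tested. Heterografted stock replicate 1 stood apart. It had counts on 4459 genes, against 10025 to 10611 in the other 4 stocks, its 10 most abundant genes held 58.3% of its counts, and its log2 CPM values (counts scaled to a common library size) correlated with the other stocks at a median r of 0.55 over genes, against 0.77 among those 4. Counts of genes called are therefore given with and without it. Its tomato partner and those of the other libraries also differed in yield between the graft types, since the tomato stocks below pepper scions held 32731 to 267066 counts (n = 3) and the tomato scions above pepper stocks 1276901 to 2266866 (n = 4), and the part of this difference in the pepper values was not tested. The paper cites earlier work in which a small part of tomato and pepper reads mapped to the other species' genome. The part of tomato reads in the pepper counts was not tested. The pepper identifiers are not paired with gene names in the sources used here, apart from CA03g31320 (CaERF114), so gene groups and tissue markers are not reported and the labelled tissue was not checked against markers.

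The heterografted scion and stock differed in 14% of the pepper genes tested at 21 DAG. Of 4506 genes tested, 276 were higher in the scion (6.13%) and 354 were lower in the scion (7.86%), together 630 genes (edgeR's quasi-likelihood test, Benjamini-Hochberg adjusted p under 0.05 and a log2 fold change beyond 1.5 in size). Without stock replicate 1, 249 genes were higher and 406 lower, 556 of these genes were called in the same direction in both fits and 0 in opposite directions. With the 10 libraries fitted without the other groups, 261 genes were called, so the share of 14% depends on which groups enter the fit. Scions resembled stocks less than they resembled each other. The log2 CPM of a scion and a stock library correlated over genes at a median r of 0.49 (25 pairs, 0.35 to 0.59), against a median of 0.66 between scions (10 pairs, 0.59 to 0.87) and 0.70 between stocks (10 pairs, 0.48 to 0.78). In bulk tissue, fewer cells of a type and less RNA per cell cannot be told apart.

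Differences were large on both sides. The median log2 fold change, scion over stock, was 2.77 for the 276 genes higher in the scion and -2.60 for the 354 genes lower in the scion, while the median over all genes tested was 0.07. With genes at 0 counts in a whole group put at a bound of 3 counts over that group, the medians were 2.77 and -2.59, and a change beyond 3 on the log2 scale was seen in 126 of the higher and 135 of the lower genes and beyond 5 in 40 and 29. All 5 scions lay above all 5 stocks in 164 of the 276 genes, and in 262 of all genes tested (5.81%). All 5 scions lay below all 5 stocks in 176 of the 354 genes, and in 241 of all genes tested (5.35%). Some differences were between counts and none at all, as 18 of the higher genes had 0 counts in each of the 5 stocks and 30 of the lower genes had 0 counts in each of the 5 scions, beside 29 and 48 such genes among all tested. Among the genes tested, called genes were found at all levels of expression, with 12.3%, 14.6% and 14.98% of the genes called in the low, middle and high bins of mean CPM, each of 1502 genes. The low bin began at a mean of 24.6 CPM, since genes of low counts were left out. By identifier prefix, the share called lay between 11.4% (CA06, 448 genes tested) and 18.4% (CA04, 331 genes tested).

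The called genes made up different shares of the libraries on the 2 sides of the junction. The 276 genes higher in the scion held 14.3%, 17.7%, 11.6%, 19.9% and 12.9% of the counts of the 5 heterografted scions, against 1.14%, 2.73%, 2.37%, 2.80% and 3.18% of the counts of the 5 heterografted stocks. The 354 genes lower in the scion held 2.33%, 2.39%, 3.25%, 2.27% and 3.29% of the counts of the scions, against 15.6%, 10.97%, 10.4%, 11.4% and 12.3% of the counts of the stocks. These shares follow from how the genes were called and are given as a description. Among the scions, replicates 1, 2 and 4 had the higher shares of scion genes and the lower shares of stock genes, and replicates 3 and 5 the less extreme values on both. This held for the shares and not for every gene. CA04g00910, called higher in the scion, had log2(CPM + 1) values of 6.78, 5.29, 10.41, 6.06 and 11.34 in scion replicates 1 to 5. CA05g08240, also called higher, was at 0 in scion replicates 1, 2 and 4 and at 5.51 and 6.14 in replicates 3 and 5. Heterografted stocks had 0, 0, 0, 3.11 and 0, self-grafted libraries 8.17 to 9.62 and ungrafted stems 7.79 to 8.66. The gene was thus lower on both sides of the heterograft than in any self-grafted or ungrafted library. Its call thus rested on scion replicates 3 and 5 alone, and the number of such genes was not counted. Replicates 1 and 2 correlated with each other at r = 0.87 and replicates 3 and 5 at r = 0.77.

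**Figure D1:**
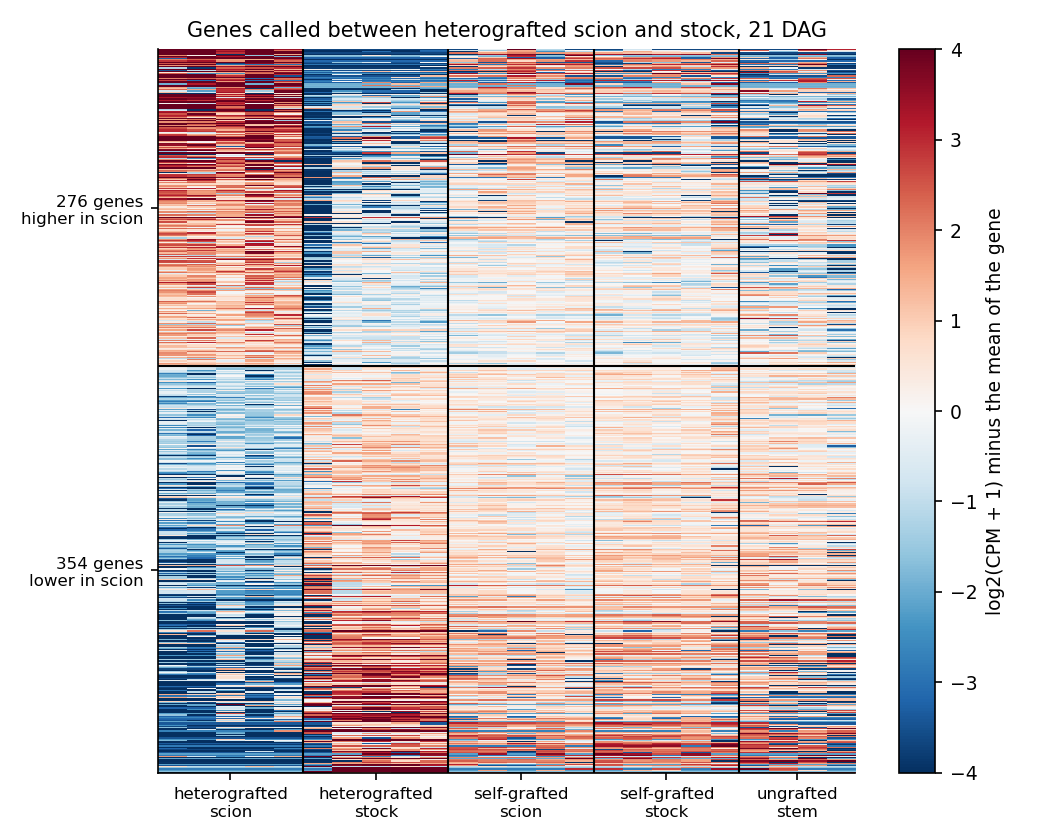
Level of the 630 called genes (rows, ordered by log2 fold change, scion over stock) in the 24 pepper libraries of 21 DAG (columns), as log2(CPM + 1) minus the mean of the gene over the libraries, with red above and blue below the mean. The mean of the heterografted scions is red for 267 of the 276 genes in the upper block and blue for 345 of the 354 genes in the lower block, every one of the 5 scions is so for 176 and 245 of them, heterografted stock replicate 1 is the leftmost and darkest stock column of the upper block, and 0 genes were called between the self-grafted scions and stocks.

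No gene was called between the sides of the self-graft. Between self-grafted scions and stocks, 0 genes were called (0% of 4506), and DESeq2 called 0 genes as well, with 64 genes at an unadjusted p under 0.05. In edgeR's test, 1344 genes (29.8%) had an unadjusted p under 0.05 in the heterografts, against 36 (0.799%) in the self-grafts. A share of 0.05 would be expected with no difference at all, so this test was conservative for the self-grafts. The median size of the log2 fold change over all genes was 0.69 in the heterografts, against 0.23 in the self-grafts, and 991 genes went beyond 1.5 in size in the heterografts, against 78 in the self-grafts. A self-grafted scion and a self-grafted stock correlated at a median r of 0.80 (25 pairs, 0.68 to 0.86). With the compared groups alone in the fit, the genes at an unadjusted p under 0.05 were 916 in heterografts, against 309 in self-grafts, and 261 and 0 genes were called. The gap between heterografts and self-grafts was thus smaller where the spread was not shared with the other groups. In self-grafts 8 of the 10 libraries lay closest to the library of their own replicate number on the other side, against 0 of 10 in heterografts, and the fit treats scion and stock as independent. With the replicate number as a block, 0 genes were called in self-grafts as well. That block was shared by all groups of the day, heterografts included. It therefore cannot show what pairing within self-grafts alone would give.

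The difference between both contrasts was tested with an interaction term, which shares its heterograft libraries with the contrast above. The fit treats all libraries as independent, although both pieces of a self-graft can come from the same plant, unlike those of the heterografts. The log2 fold change, scion over stock, was higher in heterografts than in self-grafts for 93 genes (2.06% of those tested) and lower for 138 genes (3.06%), 5.13% in all. Without stock replicate 1, the numbers were 115 and 211. The total of 231 genes became 444 with DESeq2's Wald test, 125 without a filter on low counts, 152 with counts thinned to the smallest library and 152 with the replicate block. For the 276 genes higher in the heterografted scion, the median log2 fold change in the self-grafts was 0.04, with 151 positive and 124 negative values. For the 354 genes lower in the heterografted scion it was -0.14, with 125 positive and 227 negative values. Over all genes tested the self-graft median was 0.00358, with 2273 positive and 2228 negative values.

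**Figure D2:**
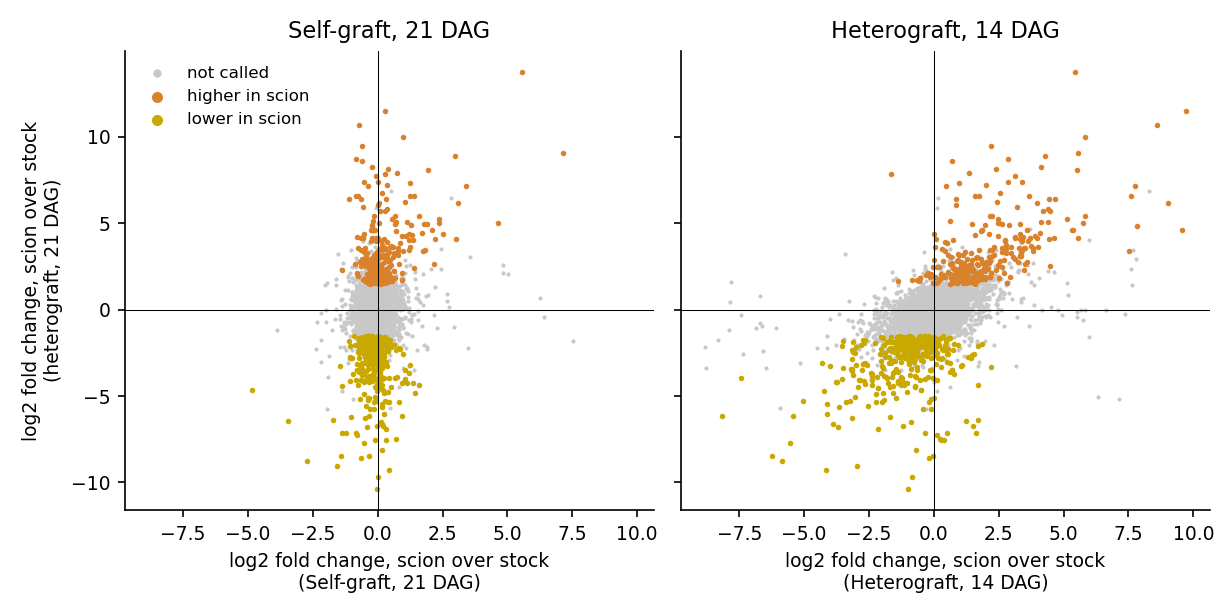
Log2 fold change, scion over stock, of each of 4506 pepper genes in heterografts at 21 DAG (vertical axis) against the same contrast in self-grafts at 21 DAG (left) and in heterografts at 14 DAG (right). Genes higher in the heterografted scion at 21 DAG are orange, lower ones yellow and genes not called grey. The coloured points stand in a narrow vertical band in the left panel, with medians of 0.04 and -0.14, and spread along the rising diagonal in the right panel, with medians of 1.68 and -0.92.

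Set against self-grafts, the scion and the stock of heterografts both differed. Heterografted scions had 214 genes higher (4.75%) and 302 genes lower (6.7%) than self-grafted scions, 11.5% of those tested, and heterografted stocks had 145 genes higher (3.22%) and 197 lower (4.37%) than self-grafted stocks, 7.59% in all. Without stock replicate 1, the stock comparison gave 196 and 201 genes. Both comparisons share their heterograft libraries with the contrast of scion and stock, and whether the number of genes differed between scion and stock was not tested. The genes higher in the heterografted scion had a median group mean of 207 CPM in heterografted scions and 23.8 CPM in heterografted stocks, beside 52.9 CPM in self-grafted scions, 52.7 CPM in self-grafted stocks and 44.8 CPM in ungrafted stems. Of these 276 genes, 228 had their highest group mean in the heterografted scion, as did 1245 of all 4506 genes tested. The genes lower in the heterografted scion had a median group mean of 19.6 CPM in heterografted scions and 135.3 CPM in heterografted stocks, beside 74.3 CPM in self-grafted scions, 85.5 CPM in self-grafted stocks and 75.3 CPM in ungrafted stems. Of these 354 genes, 192 had their highest group mean in the heterografted stock, 75 in the ungrafted stem, 70 in the self-grafted stock and 17 in the self-grafted scion, while 1010 of all genes tested had theirs in the heterografted stock. These counts follow in part from how the genes were called. In both lists the self-grafted and ungrafted medians lay between those of the heterografted scion and stock, a place that the choice of genes favours.

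Self-grafted and ungrafted libraries entered the fit, where they bear on the spread and so on the calls, but not the contrast itself. The 276 genes held 4.98% to 7.03% of the counts of self-grafted scions, 4.69% to 5.94% of self-grafted stocks and 5.03% to 6.65% of ungrafted stems. The 354 genes held 7.95% to 9.31% in self-grafted scions, 8.00% to 10.3% in self-grafted stocks and 12.0% to 15.1% in ungrafted stems. The ranges of self-grafted scions and stocks overlapped for both lists, and the ungrafted stems lay above all self-grafted libraries for the second list, within the 10.4% to 15.6% of the heterografted stocks.

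**Figure D3:**
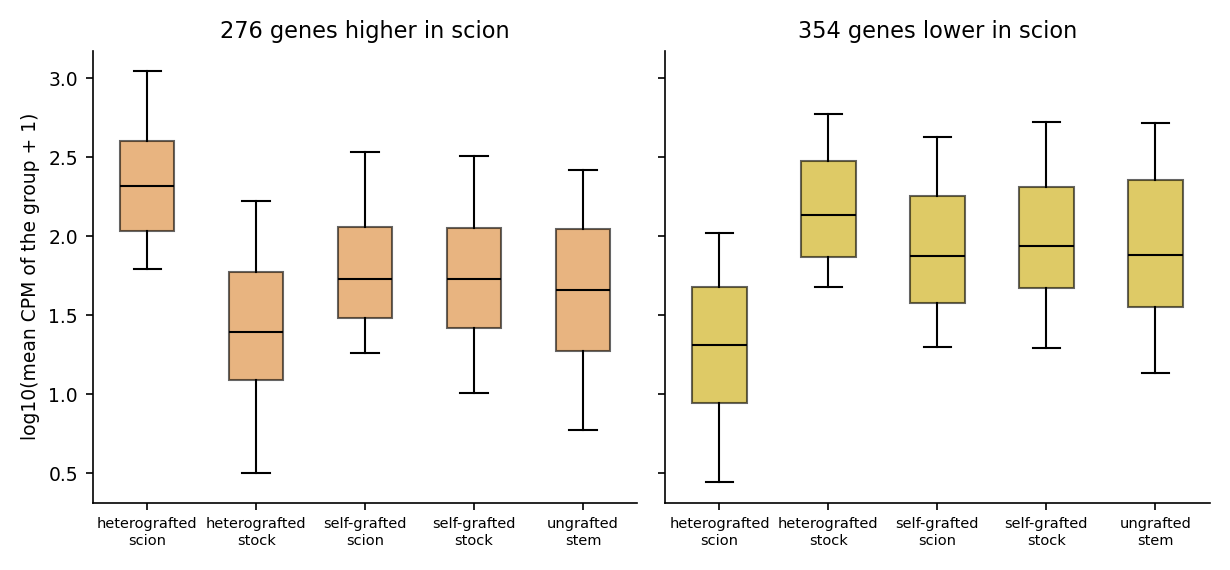
Group mean of each gene as log10(CPM + 1) in the 5 groups of 21 DAG, for the 276 genes higher in the heterografted scion (left) and the 354 genes lower in it (right). Boxes span the quartiles with the median as a line, and whiskers reach the 10th and 90th percentile of the genes, so they show the spread over genes and not over libraries. Self-grafted scions, self-grafted stocks and ungrafted stems have medians of 44.8 to 52.9 CPM on the left and 74.3 to 85.5 CPM on the right, between the heterografted scion and stock. The choice of genes favours such a place in between.

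The same contrast was drawn at the earlier times, with other plants. At 7 DAG, 192 genes were called between heterografted scion and stock (93 or 2.06% higher and 99 or 2.2% lower in the scion, 4.26% in all). At 14 DAG there were 251 (140 or 3.11% higher and 111 or 2.46% lower, 5.57% in all), beside the 630 of 21 DAG. The number of libraries also differed between the times, and with replicates 1 to 4 of both groups 591 genes were called at 21 DAG. That refit does not match the 4 scions and 3 stocks of 7 DAG. Depth differed too, with 226519 to 288098 counts in heterografted stocks at 7 DAG and 382654 to 493202 at 21 DAG. The 7 DAG fit also included ungrafted libraries, the smallest of 55202 counts. The part of depth in the change over time was not tested. With the compared groups alone in the fit, 68 genes were called at 14 DAG. The count of 14 DAG moved to 409 without stock replicate 1 of that day and to 157 without stock replicate 4. The count of 7 DAG moved to 64, 103 and 86 without scion replicates 1, 4 and 5 of that day, and to 100 and 59 without stock replicates 3 and 4. With the replicate block, 142 genes were called at 14 DAG and 31 at 7 DAG. The count of 14 DAG was also 396 with DESeq2's Wald test, 147 without a filter on low counts and 0 in edgeR's test with counts thinned to the smallest library (454 at an unadjusted p under 0.05).

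**Figure D4:**
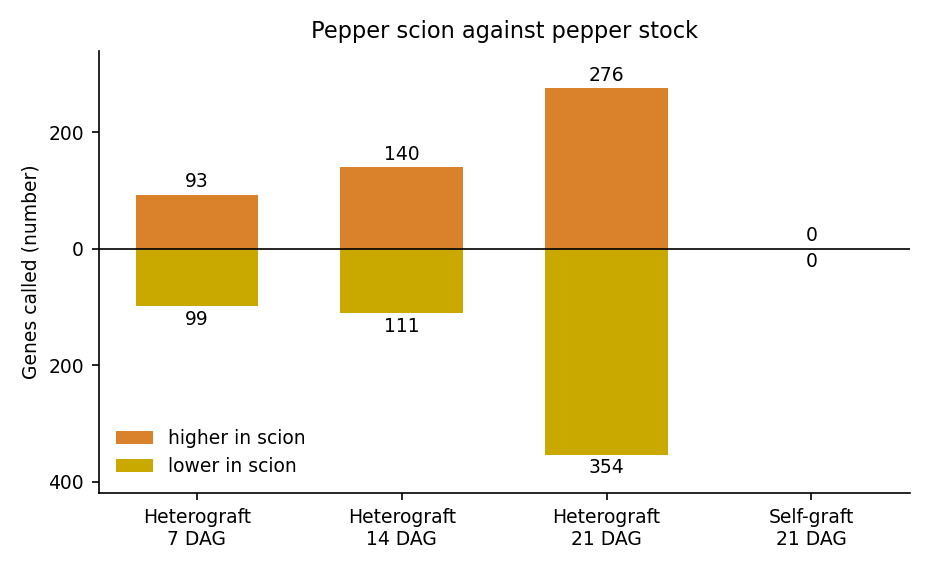
Number of genes higher (orange, upward) and lower (yellow, downward) in the pepper scion than in the pepper stock, in heterografts at 7, 14 and 21 DAG and in self-grafts at 21 DAG. The upward bars of the heterografts are 93, 140 and 276 genes by time, the downward bars are 99, 111 and 354 genes, and self-grafts have none.

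The genes called at 21 DAG mostly had the same sign before. Of the 276 genes higher in the scion, 239 had a positive log2 fold change at 7 DAG (median 1.74, or 1.72 with genes at 0 at their bound, 55 called higher and 0 lower) and 262 at 14 DAG (median 1.68, 82 called higher and 0 lower). Over all genes tested, 2379 were positive at 7 DAG (median 0.07) and 2394 at 14 DAG (median 0.07). Of the 354 genes lower in the scion, 282 were negative at 7 DAG (median -1.35, 66 called lower and 0 higher) and 292 at 14 DAG (median -0.92, 57 called lower and 0 higher). Among all genes tested, 2110 were negative at 7 DAG and 2107 at 14 DAG. Thus 59.1% of the genes higher at 7 DAG and 58.6% of those higher at 14 DAG were also higher at 21 DAG, which is 19.9% and 29.7% of the genes higher at 21 DAG. Likewise, 66.7% of the genes lower at 7 DAG and 51.4% of those lower at 14 DAG were also lower at 21 DAG, which is 18.6% and 16.1% of the genes lower at 21 DAG. Beside these shares, 6.13% of all genes tested were called higher and 7.86% lower at 21 DAG. At all 3 times 38 genes were higher and 11 lower, and 177 genes were called higher and 242 lower at 21 DAG alone. Over all genes the log2 fold changes of 21 DAG correlated with those of 7 DAG at r = 0.47 and with those of 14 DAG at r = 0.58, as a description over genes, which are not independent. Without stock replicate 1 of 21 DAG, 36 genes were higher and 11 lower at all 3 times, and 1 gene called at 21 DAG was called in the opposite direction at 14 DAG.

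By share of counts the earlier plants were separated too. At 7 DAG the 276 genes held 7.07% to 10.7% of the counts in heterografted scions, against 2.51% to 2.87% in heterografted stocks, and at 14 DAG 8.60% to 10.7% in scions, against 1.71% to 4.69% in stocks. The 354 genes held 4.22% to 5.62% in scions at 7 DAG, against 11.7% to 17.5% in stocks, and 4.51% to 6.49% in scions at 14 DAG, against 7.63% to 9.85% in stocks. Scions and stocks did not overlap at either time, and the scions of 21 DAG (11.6% to 19.9% and 2.27% to 3.29%) lay beyond those of both earlier times, as the genes were called on the plants of 21 DAG.

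A gene called at one time and not at another is not shown to differ between the times, so the change of the contrast was tested in one fit over the 3 times. The log2 fold change, scion over stock, was higher at 21 than at 14 DAG for 10 genes (0.222%) and lower for 38 (0.843%), 1.07% in all, and higher at 21 than at 7 DAG for 21 genes (0.466%) and lower for 55 (1.22%), 1.69% in all. With DESeq2's size factors the second split was 30 higher and 30 lower, and that scaling moved the median difference over all genes to 0.09, against -0.10 with edgeR's scaling. The number of genes with a tested change over time was thus small beside the 630 called at 21 DAG. A difference between contrasts is estimated less precisely than a single contrast, so the smaller number does not show that the contrast was stable. The number moved by over 1.5 times without scion replicates 3 and 5 of 21 DAG (81 and 93 genes), scion replicate 5 of 14 DAG (30) and stock replicates 3 and 4 of 14 DAG (27 and 31) in the first comparison. In the second it moved by that much without scion replicates 1, 2 and 5 of 21 DAG (47, 28 and 118 genes), stock replicates 1, 2, 3 and 4 of 21 DAG (121, 40, 50 and 50), scion replicates 1, 3 and 4 of 7 DAG (26, 46 and 44) and stock replicates 3 and 4 of 7 DAG (20 and 11).

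Single genes show how far the contrast went. CA03g17780 had the largest rise of those without overlap between the groups, with 7197, 11926, 939, 2510 and 133 CPM in heterografted scions, against 0 counts in all 5 heterografted stocks. The scions spread over a wide range, with replicates 1 and 2 highest and replicate 5 lowest, and every one lay above every stock. Relative to a floor of 3 counts over the 5 stocks, the pooled scion level was at least 2980-fold higher (adjusted p = 0.00132, edgeR), or at least 1702-fold without scion replicate 2. In self-grafts it had 0, 9.0, 410, 4.59 and 0 CPM in scions, against 0, 6.19, 0, 0 and 0 CPM in stocks. Ungrafted stems had 0, 0, 340 and 104 CPM, so counts of this gene were also seen without a graft, in some plants and not in others. At 7 DAG it had 107, 165, 619 and 320 CPM in heterografted scions, against 0 in the 3 stocks (adjusted p = 0.0797, not called), and at 14 DAG 63.8, 307, 730 and 382 CPM in scions, against 7.60, 25.1, 0 and 0 CPM in stocks (adjusted p = 0.0183). The interaction with self-grafts was not called (adjusted p = 0.518).

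CA09g18710 was next, with 5594, 9161, 416, 4973 and 239 CPM in heterografted scions, against 0, 0, 0, 0 and 4.87 CPM in heterografted stocks, the last from 2 counts. Replicates 1, 2 and 4 of the scion were again high and replicates 3 and 5 low. The log2 fold change was 11.52 ± 1.36 (SE, n = 5 each, adjusted p = 1.36e-05, edgeR), and the ratio of the pooled levels was 3839 with a counting interval of 1062 to 31708 (95%, counting error only). The log2 fold change was 10.92 without scion replicate 2. Without stock replicate 5 no stock had counts and the pooled scion level was at least 1973-fold higher. Self-grafted scions had 16.1 to 142 CPM (median 26.6) and self-grafted stocks 8.45 to 78.2 CPM (median 40.9), and ungrafted stems had 275, 39.9, 323 and 65.7 CPM. The heterografted scions thus lay above and the heterografted stocks below the self-grafts, by a log2 fold change of 6.45 ± 0.99 for scions (adjusted p = 1.16e-04, edgeR) and of -4.79 ± 1.38 for stocks (adjusted p = 0.0271, edgeR). The scion and stock contrast also differed from that of self-grafts (interaction 11.24 ± 1.59, adjusted p = 4.38e-04, edgeR). It was called higher in the scion at 7 DAG (log2 fold change 7.25 ± 1.66, adjusted p = 0.0210, edgeR), with 2 counts over the 3 stocks. At 14 DAG all 4 stocks had 0 counts and the pooled scion level was at least 160-fold higher (adjusted p = 4.53e-05, edgeR).

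CA08g09320 had the largest fall, with 0 counts in all 5 heterografted scions, against 1428, 163, 138, 299 and 251 CPM in heterografted stocks. The highest stock value came from stock replicate 1, the library that stood apart. Relative to a floor of 3 counts over the 5 scions, the pooled scion level was at least 247-fold lower (adjusted p = 0.00109, edgeR, and 0.00135 to 0.00306 when each library was left out in turn). Without stock replicate 1, which gave 418 of the 744 stock counts, it was at least 129-fold lower. This gene was on in some plants and off in others in every other group of 21 DAG. Self-grafted scions had 170, 211, 0, 163 and 134 CPM, against 161, 213, 0, 163 and 154 CPM in self-grafted stocks, and ungrafted stems had 320, 0, 437 and 285 CPM. The 0 of the self-grafts was in replicate 3 on both sides of the junction. Over the 39 self-grafted and ungrafted pepper libraries of all times, 11 had 0 counts and the other 28 had 16 or more. At 7 DAG 3 of 4 heterografted scions and 1 of 3 heterografted stocks had 0 counts, and at 14 DAG 3 of 4 scions and 2 of 4 stocks, and neither time was called (adjusted p = 0.273 and 0.836). The contrast at 21 DAG was lower than in self-grafts (adjusted p = 0.0109, edgeR's interaction term), and the part of these plant-to-plant differences in the result was not tested.

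Such on and off genes were common in the data. Of all genes tested, 36.4% had 0 counts in at least 1 and 20 or more counts in at least 1 other of the 14 self-grafted and ungrafted libraries of 21 DAG. The shares were 30.1% among the 276 genes higher in the scion and 20.9% among the 354 genes lower in it.

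CA10g06890, with the next largest fall, had 0 counts in all 5 heterografted scions, against 413, 166, 347, 170 and 256 CPM in heterografted stocks, and 0 counts in all 14 self-grafted and ungrafted libraries of that day. Counts at 21 DAG were therefore seen in heterografted stocks alone among the 5 groups. Whether tomato reads had a part in these counts was not tested. The pooled scion level was at least 156-fold lower than that of the stocks (adjusted p = 2.54e-04, edgeR), and heterografted stocks were higher than self-grafted stocks (adjusted p = 5.45e-04, edgeR). At 7 DAG it had 0, 78.5, 0 and 0 CPM in heterografted scions, against 285, 181 and 461 CPM in heterografted stocks (adjusted p = 0.203, not called). At 14 DAG both sides had counts, 51.6, 98.6, 91.8 and 206 CPM in scions, against 196, 296, 94.6 and 225 CPM in stocks, and the groups overlapped (adjusted p = 0.574). The contrast was lower at 21 than at 14 DAG (adjusted p = 0.0232, edgeR, in the fit over the 3 times). In self-grafted and ungrafted libraries of 7 and 14 DAG, 5 libraries had 3 to 7 counts and the others had 0.

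CA03g31320 (CaERF114) encodes an ethylene response factor, a family of transcription factors of which some members are known in *Arabidopsis* for their induction by wounding. It had 183, 217, 32.7, 200 and 55.5 CPM in heterografted scions, against 185, 16.6, 65.8, 35.5 and 90.1 CPM in heterografted stocks. The groups overlapped, and the log2 fold change of 0.86 ± 0.90 was not called (SE, n = 5 each, adjusted p = 0.596, edgeR). Scion replicates 1, 2 and 4 were again higher than replicates 3 and 5. Self-grafted scions had 0, 0, 23.3, 0 and 10.5 CPM and self-grafted stocks 0, 0, 0, 7.29 and 0 CPM, and all ungrafted stems had 0 counts. Both sides of the heterograft were higher than the same side of the self-graft, with a log2 fold change of 4.41 ± 1.08 for scions (adjusted p = 0.00785, edgeR) and 5.51 ± 1.22 for stocks (adjusted p = 0.00622, edgeR). Scion and stock did not differ beyond their spread at 7 DAG (95.9 ± 43.1 CPM in 4 scions and 131 ± 105 CPM in 3 stocks, SD, adjusted p = 0.908, edgeR) or at 14 DAG (39.0 ± 6.08 CPM in 4 scions and 49.8 ± 32.7 CPM in 4 stocks, SD, adjusted p = 0.879, edgeR). CaERF114 was thus high in heterografts on both sides of the junction, and a difference by position was not detectable with these libraries.

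**Figure D5:**
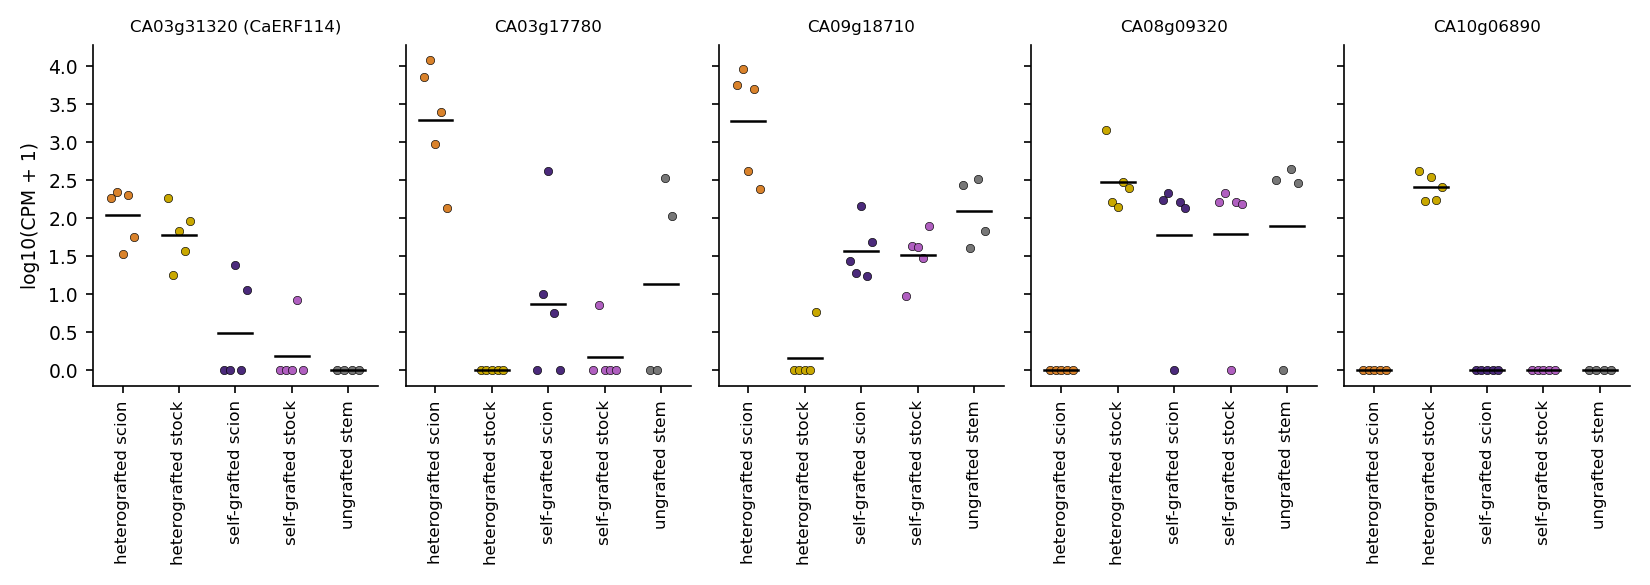
Level of 5 pepper genes in each library of 21 DAG as log10(CPM + 1), with the mean of these log values as a bar, for heterografted scions, heterografted stocks, self-grafted scions, self-grafted stocks and ungrafted stems. CA03g31320 overlaps between heterografted scion and stock, CA03g17780 and CA09g18710 are higher in every heterografted scion than in any heterografted stock, and CA08g09320 and CA10g06890 are at 0 in all 5 heterografted scions.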

How the data were processed

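The authors trimmed the 3' reads (Lexogen QuantSeq FWD) with Trimmomatic and then Prinseq, mapped them by STAR 2.7.10b to the CM334 pepper and ITAG4 tomato gene models, counted them with StringTie and left out outlying libraries of low depth (versions from the submitters' processing notes). The deposited values are raw counts per gene, 30242 pepper genes in 64 libraries, 0 columns of which were set aside as unmapped. Pepper totals at 21 DAG were 183552 to 550525 counts, and p-values measure the spread between the labelled replicates.

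The main tool was edgeR 4.0.16 under R 4.3.3, with DESeq2 1.42.0 as an alternative. Genes with under 10 counts on average, or 0 counts in 75% or more of the pepper libraries, were left out, as in the study, which left 4506. The 5 pepper groups of a time point were fitted together (quasi-likelihood model, TMM scaling). The change over time came from one fit of all 3 times. Benjamini-Hochberg adjustment covered all genes tested, and calls needed an adjusted p under 0.05 and a log2 fold change beyond 1.5 in size. Standard errors, the size of the log2 fold change divided by the root of F, are approximate. CPM use one TMM scaling over the 64 pepper libraries. Bounds against 0 use 3 counts over the group, and they and counting intervals cover counting error only.

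The genes named are CaERF114 and, among called genes without overlap between the groups, the 2 with the largest rise and the 2 with the largest fall, since the sources used here pair the other pepper identifiers with no names. The members and rules were chosen with earlier results of these data known. Alternatives were DESeq2's size factors, DESeq2's Wald test, filterByExpr, no filter, no fold threshold, thinned counts (seed 1), the compared groups alone, the replicate number as a block and each library left out. Gene groups, tissue markers and sequences were not analysed here.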

Additional observations from a re-analysis of the deposited data

Results flagged for a closer look

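The contrast of pepper scion and stock differed between graft types and between times by tests of the difference itself. The interaction with self-grafts was called for 231 genes, the change between 14 and 21 DAG for 48 and the change between 7 and 21 DAG for 76. These fits treat all libraries as independent, although both pieces of a self-graft can come from the same plant. The counts also moved with the settings, as given below. Of the named genes, the interaction was called for CA09g18710 (log2 fold change 11.24) and CA08g09320 (-10.37), and the change between 14 and 21 DAG for CA10g06890 (-8.74), where the fitted values of genes with 0 counts in a group are no measure of size.

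Among 24 groups of 4 or 5 values examined, 8 had 1 library far from the others. The rule's rate of about 1 in 20 holds for normally distributed values and not for CPM with many zeros. The 8 flags are therefore not set against a rate by chance. Heterografted stock replicate 1 had counts on 4459 genes, against 10025 to 10611 in the others, and 1428 CPM of CA08g09320, against 138 to 299 in the others. Heterografted stock replicate 5 had 4.87 CPM of CA09g18710, against 0 in the others. Self-grafted scion replicate 3 had 410 CPM of CA03g17780 (the others 0 to 9.0) and 142 CPM of CA09g18710 (the others 16.1 to 48.1). Self-grafted stock replicate 2 had 6.19 CPM of CA03g17780 and self-grafted stock replicate 4 had 7.29 CPM of CaERF114, with 0 in the others in each case. Self-grafted stock replicate 3 had 0 CPM of CA08g09320, against 154 to 213 in the others. Where the other values are 0 a single count sets the flag.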

How the results depend on the processing

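The main contrast of 630 genes stayed within 1.5 times under the other settings run (535 with thinned counts to 859 with no fold threshold, 551 with the replicate block, 553 to 655 without single libraries) except with the 2 compared groups alone in the fit, which called 261 genes, 259 of them as before. The 5 named genes kept their direction and call throughout. The self-graft contrast gave 0 calls in all 8 alternatives and without each library (0 to 0). The interaction of 231 genes gave 444 with DESeq2's Wald test, 152 with thinned counts, 125 with no filter, and 174 to 326 without single libraries. The 14 DAG contrast of 251 genes gave 396 with the Wald test, 147 with no filter, 68 with the compared groups alone, 0 with counts thinned to the smallest library of 18243 (454 at an unadjusted p under 0.05), and 157 to 409 without single libraries. The 7 DAG contrast of 192 genes gave 59 to 247 without single libraries. The change between 14 and 21 DAG (48) gave 31 with filterByExpr and 27 to 93 without single libraries, and that between 7 and 21 DAG (76) gave 20 with filterByExpr and 11 to 121. The comparisons with self-grafts gave 421 to 591 (scion) and 287 to 397 (stock) without single libraries. The causes of these changes were not tested.

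The replicate numbers do not pair heterografted scions with stocks, which are different plants (r of same-numbered deviations -0.36 to 0.01, 0 of 10 libraries closest to their own number). In self-grafts r was 0.03 to 0.14, with 8 of 10 closest to their own number. The replicate block gave 152 genes for the interaction, 142 at 14 DAG, 31 at 7 DAG and 43 for the change between 7 and 21 DAG, and moved no other count by over 1.5 times. The 4-against-4 fit, the 14 DAG fit without the library of 18243 counts (298 genes), the alternatives of the comparisons with self-grafts and the counts without stock replicate 1 for the times were chosen after the data were seen. A count of 0 in a group of 5 libraries allows a level of up to about 1.67 CPM, so lower levels could not be seen.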

Other observations

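Among all 4506 genes tested, 4 had counts in the heterografts of 21 DAG and in no other pepper library of that day, of which 1 was called higher and 2 lower in the scion. None of the genes tested was without counts in all 39 self-grafted and ungrafted libraries. This follows largely from the filter, which left out genes without counts in 75% or more of the 64 pepper libraries. A gene with counts only in heterografted scions, or only in heterografted stocks, over all times could not pass it. Whether such genes exist was therefore not tested. Self-grafted and ungrafted libraries of 21 DAG held the 354 genes lower in the heterografted scion at different shares, 7.95% to 10.3% in the 10 self-graft libraries, against 12.0% to 15.1% in the 4 ungrafted stems, with no overlap.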
